A study of Mus with 15 samples.

Results

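Fatty acid oxidation was examined in mouse fat grafts and ungrafted fat through 37 genes, chosen by symbol from a list of its enzymes, transporters and electron carriers. All 37 were found among the 55471 genes of the deposited matrix, and all 37 passed the filter on low counts. Bulk RNA-seq, which reads the pooled RNA of a whole tissue piece, had been run on 5 fat grafts at day 3, 5 fat grafts at day 7 and 5 control samples of adipose tissue. Every sample was from a wild type C57BL/6 mouse of 7 weeks, and the labels name no other treatment. The labels name neither the fat depot nor the recipient site, and do not say whether the samples of a group came from separate animals, so the p-values measure the spread between these samples.

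Cells burn fatty acids in 2 compartments. A long-chain fatty acid is first activated to an acyl-CoA by a synthetase, crosses the inner mitochondrial membrane as a carnitine ester, and is then shortened in repeated rounds of dehydrogenation, hydration, a further dehydrogenation and thiolysis, with electrons leaving through the electron transfer flavoprotein. Peroxisomes take up very long and branched chains through ABC transporters and shorten them with an oxidase, a bifunctional enzyme and a thiolase of their own. White fat mainly stores and releases fatty acids, while muscle, liver and brown fat are known for burning them. Of the 37 genes, 20 encode mitochondrial proteins, 9 encode peroxisomal ones, and 8 encode proteins found in both or elsewhere.

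Most of the pathway was lower in grafts. At day 3 after grafting, 32 of 37 genes were lower than in controls, 3 were higher (Cpt1a, Acsl4 and Acsl5) and 2 did not pass the test (Acsl3 and Decr2), with limma at an adjusted p under 0.05. Of all 16051 genes tested, 30.3% were lower and 30.1% higher by the same rule, or 60.4% in either direction. The median log2 change of the 37 genes was -1.94, against -0.02 over all genes tested. At day 7, 32 of 37 were again lower and 2 were higher (Cpt1a and Acsl4), with a median of -2.12, where 28.4% of all genes were lower, 32.2% higher, 60.7% either, and the median over all genes was 0.03. In 30 genes every day 3 graft lay below every control and in 2 every one lay above, where 19.9% of all genes were so separated downwards, 20.6% upwards and 40.5% either way. In 31 genes every day 7 graft lay below every control and in 2 above, where the shares over all genes were 19.8%, 22.7% and 42.5%. The log2 change was -1 or lower in 28 genes at day 3 and in 27 at day 7, a cut-off for which no share over all genes was computed. On the deposited TPM scale, which allows for transcript length, the 37 genes summed to 2013 ± 223 TPM in day 3 grafts, 1795 ± 189 in day 7 grafts and 5813 ± 1120 in controls (SD, n = 5 each).

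**Figure D1:**
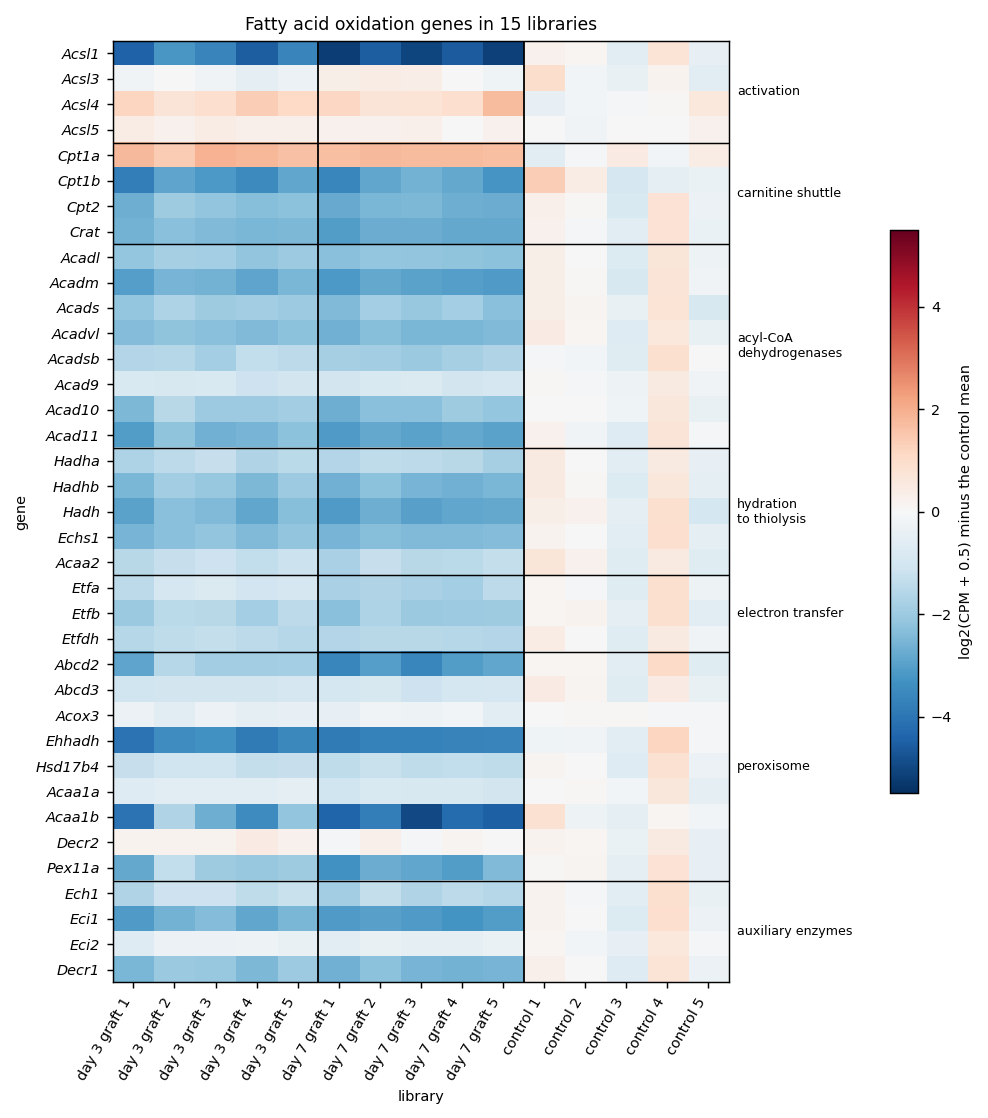
Level of each of the 37 genes (rows, grouped by role) in each library (columns), as log2(CPM + 0.5) minus the mean of the 5 controls; blue is lower and red higher. Nearly all rows are blue in both graft groups, while Cpt1a and Acsl4 are red in all 10 grafts.

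**Figure D2:**
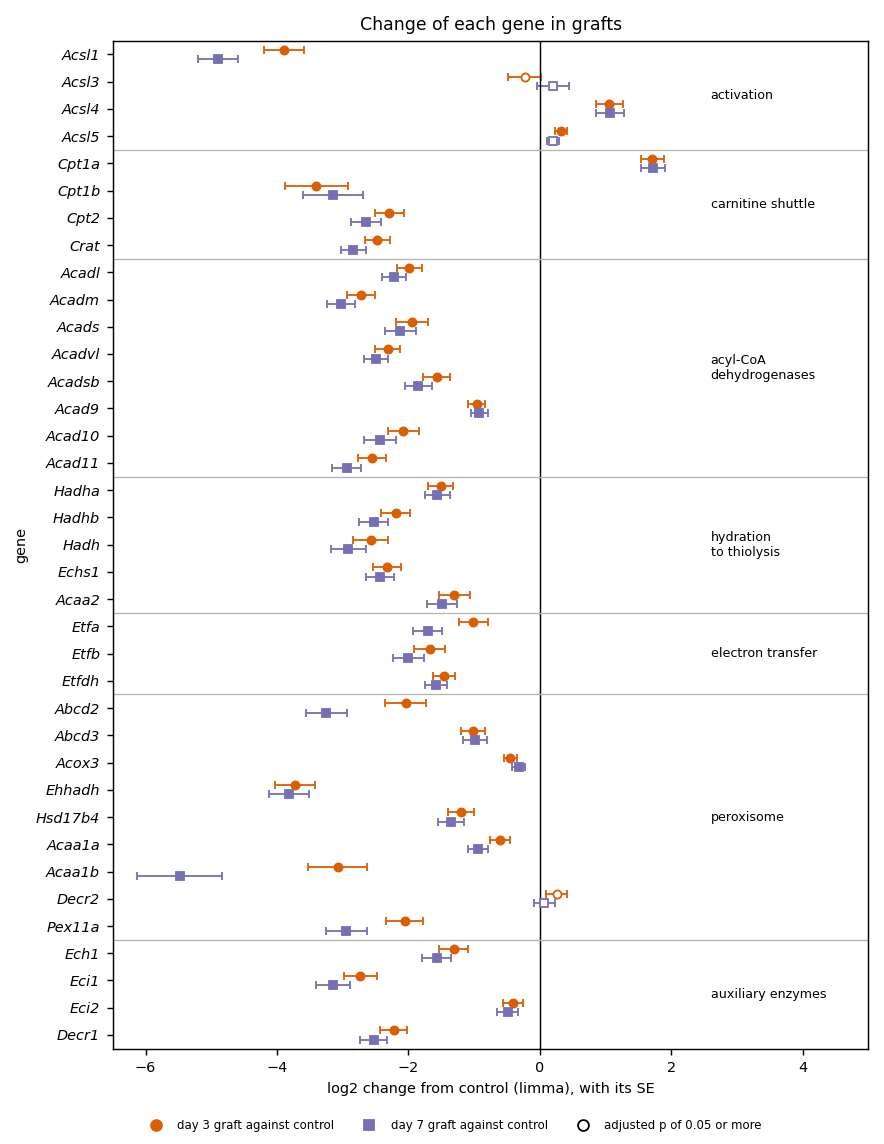
Fitted log2 change of each gene in day 3 grafts (circles) and day 7 grafts (squares) against controls, with its SE from limma; open symbols mark an adjusted p of 0.05 or more. The changes run from -5.48 for Acaa1b at day 7 to 1.72 for Cpt1a at day 7.

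Libraries held 17109216 to 31997959 counts. Levels are given as CPM, counts scaled to a common library size, with scaling factors of 0.746 (control 4) to 1.14. The share of counts from the mitochondrial genome was 2.35% to 4.02% in day 3 grafts, 2.17% to 2.89% in day 7 grafts and 9.01% to 14.9% in controls. Most lists of cell type markers also differed between the groups. Their counts are to be read beside all genes tested, of which 30.3% were lower and 30.1% higher at day 3. At day 7 these shares were 28.4% and 32.2%. The summed CPM of 6 adipocyte markers (Adipoq, Plin1, Cidec, Lep, Retn and Cfd) ranged from 782 to 2589 in day 3 grafts, 179 to 411 in day 7 grafts and 8945 to 25652 in controls, and all 6 were lower at both times. Sums of 6 macrophage markers were 2315 to 4941, 2782 to 4682 and 273 to 1077 in the same order, and all 6 were higher at both times. The 5 brown adipocyte markers, which include Ucp1, summed to 1.72 to 7.39 in day 3 grafts, 0.30 to 3.51 in day 7 grafts and 131 to 642 in controls, the highest being control 1, and all 4 that could be tested were lower at both times. With graft levels this low, the controls alone could carry these markers through the filter, which left little room for any other call. The sum of 7 skeletal muscle markers was 2.28 to 291 in day 3 grafts, 1.69 to 264 in day 7 grafts, 3274 in control 2 and 21.0 to 327 in the other controls. All 7 overlapped between the groups and limma called 0 of 7 in any comparison, with 4 at an unadjusted p under 0.05 at day 3, 2 at day 7 and 0 between the graft groups. Sums of 5 fibroblast markers were 3874 to 7781 in day 3 grafts, 7085 to 9078 in day 7 grafts and 739 to 2970 in controls, with 3 of 5 higher at each time and 2 not called. Those of 4 endothelial markers were 361 to 1212, 539 to 1001 and 286 to 371 in the same groups, all 4 higher at both times. Those of 5 neutrophil markers were 70.6 to 424, 151 to 915 and 19.0 to 154, with 3 of 5 higher at each time. Those of 4 B cell markers were 1.3 to 4.05, 3.63 to 14.9 and 105 to 1374, all 4 lower at both times, with the same limit as the brown adipocyte markers. No marker of these lists was at 0 in a whole group. In bulk tissue, fewer cells of a type and less RNA per cell cannot be told apart, and the part of these markers and of the mitochondrial share in the results on the 37 genes was not tested.

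The libraries varied together. By CPM, control 4 was the highest control for 29 of the 37 genes and also had the highest adipocyte marker sum. Control 3 was the lowest for 24 genes and had the lowest sum. Control 4 had the lowest scaling factor, 0.746, which raises all its CPM values, and control 3 the highest, 1.14, which lowers them. The part of these factors in the ranking was not tested. By TPM summed over the 37 genes, control 1 was the highest control at 7003, control 4 had 6755, and control 3 was the lowest at 4594. Among grafts, day 3 graft 1 was the lowest of its group for 24 genes and day 7 graft 1 for 22, and each had its group's lowest adipocyte marker sum. The coefficient of variation of CPM between libraries had a median over the genes of 14.2% in day 3 grafts, 10.5% in day 7 grafts and 39.0% in controls. The scaling factors of the controls enter this spread too, and their part in it was not tested. Without control 4, the median log2 change of the 37 genes was -1.74 at day 3 and -1.93 at day 7.

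Activation split by isoform. The 4 long-chain acyl-CoA synthetases couple fatty acids to coenzyme A. Acsl1 (chr8:46471037-46536051, mm10), the main isoform of adipocytes, fell, Acsl4 (chrX:142317993-142390535), which prefers arachidonic acid, rose, Acsl5 rose slightly at day 3, and Acsl3 did not pass. Acsl1 had 94.9, 229.5, 167, 90.0 and 170.0 CPM in day 3 grafts 1 to 5, 58.4, 89.0, 62.9, 86.7 and 59.7 CPM in day 7 grafts, and 2464, 2272, 1371, 3497 and 1529 CPM in controls. All 10 grafts were below all controls, and the day 7 grafts were all below the day 3 grafts. The log2 change was -3.90 ± 0.31 at day 3 (adjusted p = 3.05e-07), which is 14.9-fold lower, and -4.90 ± 0.30 at day 7 (adjusted p = 4.71e-08), which is 29.9-fold lower. Acsl4 had 98.3, 71.0, 81.7, 109 and 91.2 CPM in day 3 grafts 1 to 5, 95.5, 70.8, 72.7, 82.1 and 142 CPM in day 7 grafts, and 30.9, 39.0, 41.1, 44.8 and 64.3 CPM in controls. Every graft exceeded every control, and the log2 changes were 1.06 ± 0.21 (adjusted p = 0.000538) and 1.06 ± 0.21 (adjusted p = 5e-04) at days 3 and 7.

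Acsl5, an isoform of the endoplasmic reticulum and mitochondrial outer membrane, changed by less. Acsl5 had 151, 133, 149.8, 139 and 139.9 CPM in day 3 grafts 1 to 5, 134, 135, 139.7, 115 and 136 CPM in day 7 grafts, and 112, 99.8, 115, 111 and 135 CPM in controls. Control 5 overlapped the grafts of both days and day 7 graft 4 stood low. Acsl5 rose at day 3 with a log2 change of 0.33 ± 0.09 (adjusted p = 0.00699), and its day 7 change of 0.21 ± 0.09 did not pass (adjusted p = 0.0639). It did pass without control 5, at 0.27 (adjusted p = 0.0142), without day 7 graft 4, at 0.27 (adjusted p = 0.0272), and with quality weights, at 0.25 (adjusted p = 0.00897). It also passed on the TPM scale, at 0.56 with a pseudocount of 1 and 0.57 with 0.1 (adjusted p = 0.00537 and 0.00555). The medians over all genes were 0.33 and 0.43 there. Acsl3 had 14, 16.6, 14.3, 11.5 and 12.7 CPM in day 3 grafts 1 to 5, 20.4, 21.7, 21.2, 16.1 and 13.8 CPM in day 7 grafts, and 32.6, 14.6, 12.3, 18.5 and 10.3 CPM in controls. The groups of Acsl3, an isoform found on lipid droplets, overlapped throughout, and neither change passed, at -0.23 ± 0.25 and 0.20 ± 0.24.

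The makeup of the synthetase family by TPM differed accordingly. Acsl1 made up 39.4% ± 10.2 of the family in day 3 grafts, 24.9% ± 6.00 in day 7 grafts and 92.3% ± 2.97 in controls (SD, n = 5 each). Acsl5 held 36.1% ± 5.79, 41.4% ± 3.07 and 5.02% ± 2.17 of the family in the same groups, and Acsl4 held 18.9% ± 5.29, 24.4% ± 7.49 and 1.56% ± 0.831. The log2 ratio of Acsl1 to Acsl4 was lower by 4.94 in day 3 grafts and by 5.95 in day 7 grafts than in controls, each with adjusted p = 0.0141 in an exact two-sided permutation test, adjusted over 48 comparisons of 16 gene pairs. This adjusted value is the smallest the design gave, from an exact p of 0.00794 for 5 against 5 libraries without overlap. By TPM, Acsl1 ranked 15 of the 37 genes in day 3 grafts, 22 in day 7 grafts and 1 in controls.

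**Figure D3:**
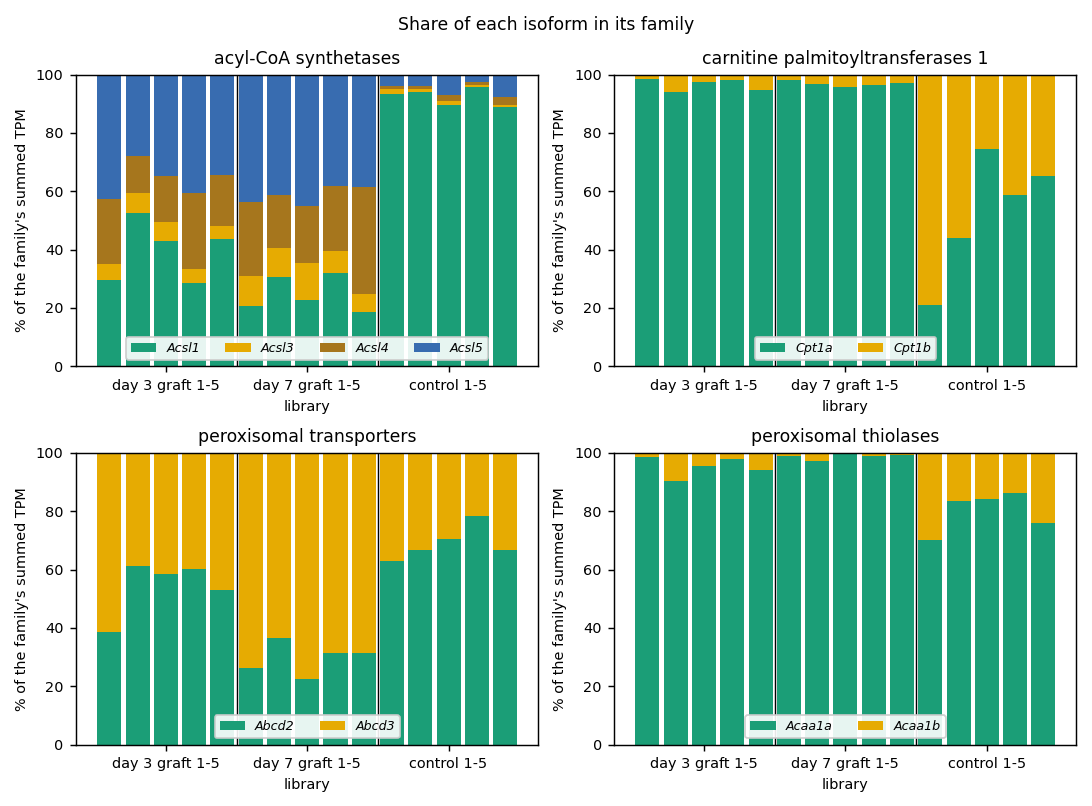
Share of each isoform in the summed TPM of its family, 1 bar per library. Acsl1 fills at most 52.5% of the synthetase bars in grafts and at least 88.8% in controls; Cpt1a fills at least 94.0% of the carnitine palmitoyltransferase 1 bars in grafts and 21.1% to 74.6% in controls.

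Within the carnitine shuttle, the isoforms of its first enzyme moved in opposite directions. Carnitine palmitoyltransferase 1 forms the acyl-carnitine at the outer mitochondrial membrane and is the step that malonyl-CoA inhibits. Its liver-type isoform Cpt1a (chr19:3322334-3385733) was higher in all 10 grafts, while its muscle-type isoform Cpt1b (chr15:89416405-89425863), also abundant in brown fat, was lower in all 10. Cpt1a had 211, 160.3, 232, 219 and 187 CPM in day 3 grafts 1 to 5, 194, 212, 204, 205 and 194 CPM in day 7 grafts, and 39.5, 58.9, 83.6, 54.9 and 80.4 CPM in controls. The log2 change was 1.71 ± 0.18 at day 3 (adjusted p = 2.34e-06) and 1.72 ± 0.18 at day 7 (adjusted p = 2.07e-06). Cpt1b had 2.12, 4.34, 3.5, 2.67 and 4.49 CPM in day 3 grafts 1 to 5, 2.47, 4.44, 5.40, 4.68 and 3.35 CPM in day 7 grafts, and 91.0, 47.5, 18.6, 25.5 and 27.5 CPM in controls. Cpt1b fell with log2 changes of -3.40 ± 0.48 (adjusted p = 3.3e-05) and -3.14 ± 0.46 (adjusted p = 3.96e-05). Control 1 was highest for Cpt1b and lowest for Cpt1a among controls, and it also had the highest brown adipocyte marker sum and the lowest muscle marker sum. Without control 1 the Cpt1b changes were -3.06 and -2.80, and without control 2, the library rich in muscle markers, they were -3.30 and -3.04. On log2(TPM + 1) they were -2.38 and -2.29, on log2(TPM + 0.1) -2.81 at day 3, and with quality weights -4.08 at day 3, all still called.

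By TPM, Cpt1a made up 96.5% ± 2.06 of the 2 isoforms in day 3 grafts, 96.8% ± 0.851 in day 7 grafts and 52.7% ± 20.9 in controls. The log2 ratio of Cpt1a to Cpt1b was higher by 4.94 in day 3 grafts and by 4.73 in day 7 grafts (adjusted p = 0.0141 each, exact permutation test). Cpt1a ranked 10 and 9 of 37 by TPM in day 3 and day 7 grafts and 31 in controls. The later steps of the shuttle went down. Cpt2 had 30.9, 53.2, 45.2, 40.4 and 42.7 CPM in day 3 grafts 1 to 5, 29.4, 35.6, 36.6, 31.6 and 30.9 CPM in day 7 grafts, and 251, 215, 115, 351 and 165 CPM in controls. Cpt2, which releases acyl-CoA inside the mitochondrion, had log2 changes of -2.29 ± 0.23 and -2.64 ± 0.23 (adjusted p = 1.56e-06 and 4.38e-07), with no overlap between grafts and controls. Crat, which exchanges short acyl groups with carnitine in mitochondria and peroxisomes, changed by -2.47 ± 0.19 and -2.84 ± 0.19 and spanned 61.4 to 77.1 CPM in day 3 grafts, 44.2 to 56.9 in day 7 grafts and 242 to 663 in controls.

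**Figure D4:**
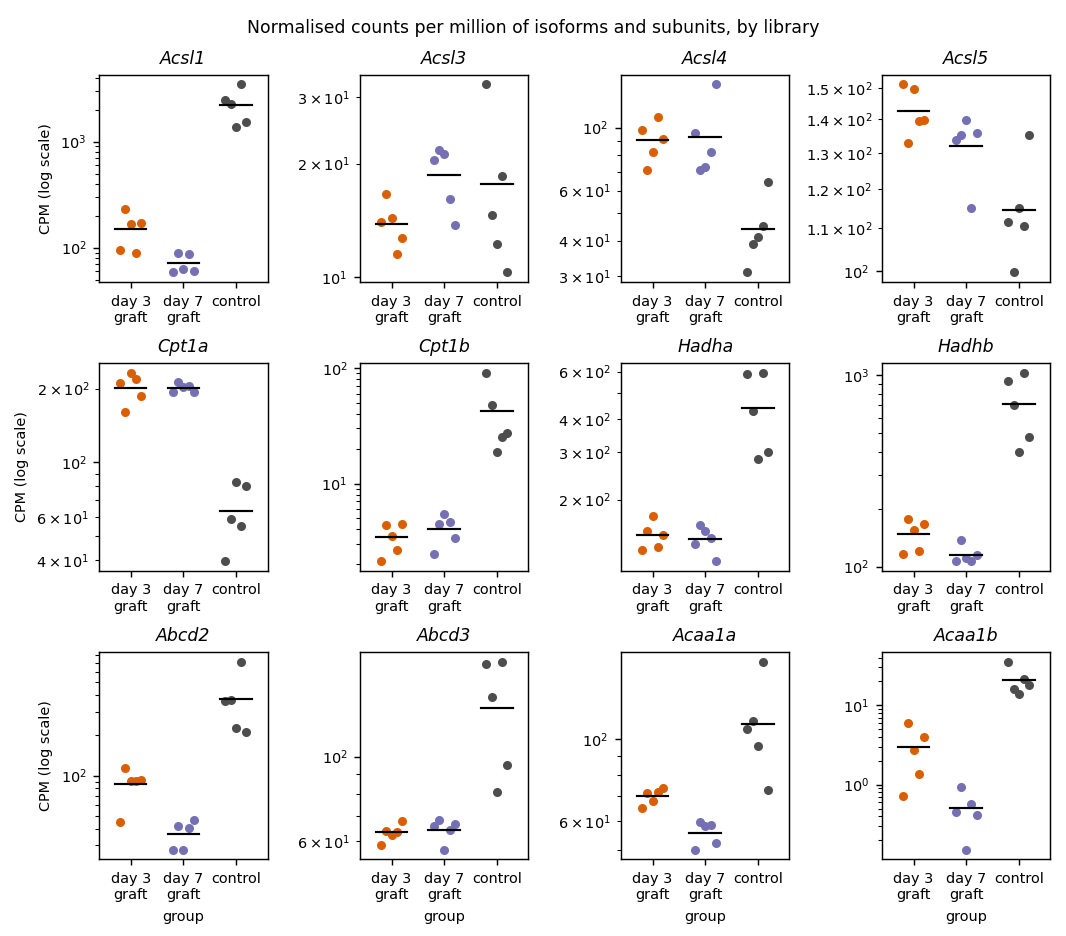
CPM (log axis, a separate scale for each gene) of 12 isoforms and subunits in day 3 grafts, day 7 grafts and controls, with 1 point per library and the group mean as a bar. Cpt1a and Acsl4 lie above the controls in all grafts, Cpt1b and Acsl1 below, and the points of Acsl3 overlap in all 3 groups.

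The acyl-CoA dehydrogenases, which carry out the oxidation that opens each mitochondrial round, were all lower. All 8 fell at both times without overlap, with medians of -2.03 at day 3 and -2.32 at day 7. Over all genes tested, 30.3% and 28.4% were lower at days 3 and 7, and 19.9% and 19.8% were lower without overlap. The counts for the later steps are to be read beside the same shares. Acadm had 67.4, 92.8, 88.9, 72.2 and 97.0 CPM in day 3 grafts 1 to 5, 60.5, 76.9, 71.4, 67.5 and 62.5 CPM in day 7 grafts, and 683, 566, 301, 898 and 478 CPM in controls. Acadm, the medium-chain enzyme, fell furthest of the 8, with log2 changes of -2.73 ± 0.21 and -3.02 ± 0.21 (adjusted p = 2.83e-07 and 9.77e-08). Acadl had 114, 140.0, 135, 111 and 125 CPM in day 3 grafts 1 to 5, 101, 114, 108, 106 and 103 CPM in day 7 grafts, and 618, 502, 293, 785 and 411 CPM in controls. Acadl, the long-chain enzyme, changed by -1.99 ± 0.19 and -2.22 ± 0.19 (adjusted p = 1.02e-06 and 3.58e-07). Acadvl had 87.5, 98.8, 93.8, 85.5 and 97.1 CPM in day 3 grafts 1 to 5, 73.7, 89.6, 79.8, 80.3 and 85.6 CPM in day 7 grafts, and 625, 499, 279, 681 and 349 CPM in controls. Acadvl, the very-long-chain enzyme of the inner membrane, changed by -2.32 ± 0.19 and -2.50 ± 0.19 (adjusted p = 3.4e-07 and 1.57e-07). By CPM, control 4 was the highest library for each of them, and no graft reached the lowest control.

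The proportions of the chain-length specialists also differed. Acadm supplied 27.5% ± 2.7 of the summed TPM of the 4 straight-chain enzymes in day 3 grafts, 27.0% ± 1.36 in day 7 grafts and 37.6% ± 1.62 in controls. Acadl supplied 38.6% ± 1.49, 38.0% ± 1.66 and 30.8% ± 1.33 in the same groups. The Acadl to Acadvl ratio was higher by 0.33 and 0.28, and the Acadm to Acads ratio lower by 0.79 and 0.91, on the log2 scale at days 3 and 7 (adjusted p = 0.0141 each, exact permutation test). Acads, the short-chain enzyme, spanned 27.0 to 36.6 CPM in day 3 grafts, 21.5 to 32.6 in day 7 grafts and 64.9 to 201 in controls and changed by -1.94 ± 0.24 and -2.12 ± 0.24. Acadsb, which takes short branched chains from amino acid breakdown, spanned 54.2 to 77.8 CPM in day 3 grafts, 47.7 to 63.9 in day 7 grafts and 126 to 370.1 in controls and changed by -1.57 ± 0.20 and -1.85 ± 0.20. Acad11 spanned 20.3 to 37.4 CPM in day 3 grafts, 19.8 to 24.4 in day 7 grafts and 106 to 284 in controls and changed by -2.56 ± 0.22 and -2.94 ± 0.22. Acad10, the least abundant of the 37 genes in controls by TPM, spanned 3.36 to 7.01 CPM in day 3 grafts, 2.81 to 5.01 in day 7 grafts and 15.6 to 32.9 in controls and changed by -2.08 ± 0.23 and -2.43 ± 0.24, or by -1.38 and -1.54 on log2(TPM + 1). Acad9, which also serves the assembly of respiratory complex I, changed least of the 8, by -0.96 ± 0.13 and -0.92 ± 0.13, with 27.5 to 34.1 CPM in day 3 grafts, 30.1 to 34.8 in day 7 grafts and 51.1 to 87.2 in controls.

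The enzymes from hydration to thiolysis were also lower, all 5 at both times and without overlap, with medians of -2.19 and -2.43. Hadha and Hadhb encode the alpha and beta subunits of the mitochondrial trifunctional protein, which carries out the last steps on long chains. Hadha had 130.05, 153, 174, 133 and 148 CPM in day 3 grafts 1 to 5, 137, 161, 153, 144 and 118 CPM in day 7 grafts, and 590.3, 428, 283, 594 and 301 CPM in controls. Hadha changed by -1.51 ± 0.19 and -1.56 ± 0.19 (adjusted p = 1.24e-05 and 8.41e-06). Hadhb spanned 117 to 177 CPM in day 3 grafts, 107 to 138 in day 7 grafts and 398 to 1033 in controls, with changes of -2.19 ± 0.22 and -2.53 ± 0.22. Although the subunits join in 1 complex, their transcripts did not fall equally. The log2 ratio of Hadha to Hadhb by CPM, which does not allow for transcript length and so shows no order of their levels, was 0.02 ± 0.19 in day 3 grafts, 0.30 ± 0.18 in day 7 grafts and -0.66 ± 0.11 in controls (SD, n = 5 each), a rise of 0.68 and 0.97 (adjusted p = 0.0141 each, exact permutation test). The 2 genes lie head to head on chromosome 5 of mm10, Hadha on the minus strand at chr5:30118304-30155162 and Hadhb on the plus strand at chr5:30155248-30184593, with 85 bases between them.

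Short chains are finished by other enzymes. Hadh had 41.2, 65.4, 58.3, 43.8 and 63.4 CPM in day 3 grafts 1 to 5, 35.9, 49.2, 39.8, 43.1 and 44.4 CPM in day 7 grafts, and 404, 380.4, 221, 589.9 and 165 CPM in controls. Hadh, the short-chain hydroxyacyl-CoA dehydrogenase, changed by -2.58 ± 0.26 and -2.92 ± 0.26 (adjusted p = 2.03e-06 and 6.28e-07), more than any other gene of this step. Acaa2 had 65.9, 79.6, 87.0, 75.8 and 85.7 CPM in day 3 grafts 1 to 5, 55.0, 79.9, 66.8, 68.9 and 77.4 CPM in day 7 grafts, and 304, 226, 120.1, 271 and 120.0 CPM in controls. Acaa2, the mitochondrial thiolase, changed least of the step, by -1.30 ± 0.23 and -1.49 ± 0.23 (adjusted p = 0.000236 and 7.16e-05). Echs1, the short-chain enoyl-CoA hydratase, spanned 49.1 to 64.5 CPM in day 3 grafts, 49.3 to 57.0 in day 7 grafts and 189 to 560.4 in controls and changed by -2.33 ± 0.21 and -2.43 ± 0.21. Every graft was below every control for all of them.

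Unsaturated fatty acids need auxiliary isomerases and reductases, and here the mitochondrial forms fell further than their counterparts. The mitochondrial isomerase Eci1 spanned 12.6 to 21.1 CPM in day 3 grafts, 11.4 to 14 in day 7 grafts and 67.0 to 216 in controls. It changed by -2.73 ± 0.25 and -3.15 ± 0.26, and Eci2, found in mitochondria and peroxisomes, by -0.41 ± 0.15 (adjusted p = 0.032) and -0.49 ± 0.15 (adjusted p = 0.0125). Eci2 overlapped the controls, at 59.0 to 77.9 CPM in day 3 grafts, 62.4 to 74.8 in day 7 grafts and 69.2 to 144 in controls. Its day 3 call was lost in 10 of 28 alternatives, with changes of -0.41 to -0.13, 4 of them leaving out 1 library (control 1, control 4, day 3 graft 1 or day 3 graft 5, at -0.38, -0.24, -0.33 and -0.40). Its day 7 call was lost in 2, both on the TPM scale, where the change was -0.10 with either pseudocount. There the day 7 median over all genes was 0.33 with a pseudocount of 1 and 0.43 with 0.1. The Eci1 to Eci2 ratio was lower by 2.29 and 2.62 on the log2 scale (adjusted p = 0.0141 each, exact permutation test). The mitochondrial dienoyl-CoA reductase Decr1 spanned 56.7 to 80.3 CPM in day 3 grafts, 51.9 to 67.7 in day 7 grafts and 197 to 538 in controls, and the peroxisomal Decr2 spanned 23.6 to 28.2 CPM in day 3 grafts, 19.9 to 25.0 in day 7 grafts and 15.1 to 29.7 in controls. Decr1 changed by -2.23 ± 0.21 and -2.53 ± 0.21, while Decr2 did not pass, at 0.26 ± 0.16 (adjusted p = 0.167) and 0.07 ± 0.16 (adjusted p = 0.732). Decr2 did pass upwards at day 3 without control 4, at 0.42 (adjusted p = 0.0133), and with scaling to library totals, at 0.30 (adjusted p = 0.0453), and at both times on the TPM scale with a pseudocount of 1, at 0.53 and 0.42. The medians over all genes were 0.22 and 0.33 on that TPM scale. The Decr1 to Decr2 ratio was lower by 2.47 and 2.59 (adjusted p = 0.0141 each, exact permutation test). Ech1, a dienoyl-CoA isomerase of both compartments, spanned 99.7 to 146 CPM in day 3 grafts, 84.9 to 129 in day 7 grafts and 211 to 586 in controls and changed by -1.31 ± 0.22 and -1.57 ± 0.22.

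Electron transfer genes were lower too, all 3 at both times. Etfa and Etfb encode the subunits of the electron transfer flavoprotein, and Etfdh passes their electrons to ubiquinone. Etfdh had 56.0, 61.7, 66.2, 61.1 and 55.1 CPM in day 3 grafts 1 to 5, 53.3, 57.4, 57.5, 55.5 and 53.5 CPM in day 7 grafts, and 223, 161, 103, 232 and 144 CPM in controls. Etfdh changed by -1.47 ± 0.17 and -1.58 ± 0.17 (adjusted p = 5.46e-06 and 2.57e-06), with all grafts below all controls. Etfa spanned 109 to 172 CPM in day 3 grafts, 80.1 to 109 in day 7 grafts and 184 to 551 in controls, and changed by -1.02 ± 0.22 and -1.71 ± 0.22. Etfb spanned 61.0 to 93.1 CPM in day 3 grafts, 52.2 to 78.3 in day 7 grafts and 165 to 471 in controls and changed by -1.68 ± 0.23 and -2.001 ± 0.23. The Etfa to Etfb log2 ratio by CPM was 0.86 ± 0.13 in day 3 grafts, 0.49 ± 0.22 in day 7 grafts and 0.20 ± 0.23 in controls. It was higher at day 3 (adjusted p = 0.0141) and did not pass at day 7, where the difference was 0.29 ± 0.14 (SE, adjusted p = 0.107, exact permutation tests). The day 7 difference did pass without control 5, at 0.38 (adjusted p = 0.0346, exact permutation test).

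The peroxisomal genes spread widely. Of 9, 8 fell and 1 (Decr2) did not pass at either time, with medians of -1.20 at day 3 and -1.35 at day 7. The 20 mitochondrial genes had medians of -2.03 and -2.32, with 19 lower and 1 (Cpt1a) higher. Over all genes tested, 30.3% were lower at day 3 and 28.4% at day 7. The changes of the peroxisomal genes ran from -3.73 to 0.26 at day 3 and from -5.48 to 0.07 at day 7. The bifunctional enzyme Ehhadh, a known target of PPAR alpha, had one of the largest changes. Ehhadh had 5.41, 8.76, 9.33, 6.27 and 8.15 CPM in day 3 grafts 1 to 5, 6.18, 7.07, 7.05, 7.23 and 7.57 CPM in day 7 grafts, and 84.5, 86.4, 65.3, 223 and 90.8 CPM in controls. Control 4 stood high, and all grafts were below all controls, with changes of -3.73 ± 0.30 and -3.82 ± 0.30 (adjusted p = 3.68e-07 and 2.5e-07), or -3.12 and -3.11 on log2(TPM + 1). Hsd17b4, the other bifunctional enzyme, spanned 94.8 to 109.9 CPM in day 3 grafts, 88.7 to 101 in day 7 grafts and 145 to 418 in controls and changed by -1.20 ± 0.20 and -1.35 ± 0.20. Acox3, an oxidase of branched-chain acyl-CoA, spanned 54.0 to 67.7 CPM in day 3 grafts, 56.2 to 76.4 in day 7 grafts and 79.8 to 88.1 in controls. It changed by -0.45 ± 0.10 (adjusted p = 0.00118) and -0.32 ± 0.10 (adjusted p = 0.0108), and on the TPM scale with a pseudocount of 1 its day 3 call was lost, at -0.27, and its day 7 direction turned, to 0.047. On that scale the medians over all genes were 0.22 and 0.33.

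The transporters at the peroxisomal membrane parted from each other. Abcd2 and Abcd3 carry very-long-chain and branched acyl-CoA into the peroxisome. Abcd2 had 44.8, 114, 90.8, 90.5 and 92.6 CPM in day 3 grafts 1 to 5, 27.7, 41.7, 27.6, 40.2 and 46.2 CPM in day 7 grafts, and 365, 369.9, 225, 715 and 213 CPM in controls. Abcd2 changed by -2.04 ± 0.31 and -3.25 ± 0.31 (adjusted p = 6.69e-05 and 1.07e-06), with no overlap with controls. Abcd3 had 58.8, 63.9, 62.4, 63.5 and 68.0 CPM in day 3 grafts 1 to 5, 65.8, 68.2, 56.9, 64.3 and 66.8 CPM in day 7 grafts, and 174, 144, 81.0, 177 and 95.2 CPM in controls. Abcd3 changed by -1.02 ± 0.18 and -0.99 ± 0.18 (adjusted p = 0.000235 and 0.000278), also without overlap. Abcd2 supplied 54.2% ± 9.39 of the pair's TPM in day 3 grafts, 29.6% ± 5.48 in day 7 grafts and 69.0% ± 5.88 in controls. The log2 ratio of Abcd2 to Abcd3 was lower than in controls by 1.03 at day 3 and 2.25 at day 7 (adjusted p = 0.0141 each, exact permutation test). Pex11a had 8.33, 23.6, 15.3, 13.8 and 15.4 CPM in day 3 grafts 1 to 5, 5.66, 8.71, 7.93, 6.85 and 11.1 CPM in day 7 grafts, and 63.6, 66.9, 41.2, 107 and 44.5 CPM in controls. Pex11a, which promotes the elongation and division of peroxisomes, changed by -2.06 ± 0.28 and -2.94 ± 0.31 (adjusted p = 2.22e-05 and 2.48e-06), or by -2.34 at day 7 on log2(TPM + 1), and every graft was below every control.

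The peroxisomal thiolases are encoded by close copies on chromosome 9 of mm10, Acaa1a at chr9:119339676-119350299 and Acaa1b at chr9:119148023-119157093, 183 kb apart. Reads that fit both copies may have been divided between them, so the split is uncertain. Acaa1a had 65.0, 71.4, 68.1, 71.8 and 73.6 CPM in day 3 grafts 1 to 5, 50, 59.4, 58.0, 58.3 and 52.4 CPM in day 7 grafts, and 107, 112, 96.2, 163 and 73.0 CPM in controls. Acaa1a fell by little, with changes of -0.61 ± 0.15 and -0.94 ± 0.15 (adjusted p = 0.00351 and 0.000109), and its control 5 lay within the day 3 grafts. On the TPM scale with a pseudocount of 1, the day 3 call of Acaa1a was lost, at -0.23 (adjusted p = 0.13), where the median over all genes was 0.22. Acaa1b had 0.721, 5.91, 2.7, 1.37 and 4.00 CPM in day 3 grafts 1 to 5, 0.449, 0.934, 0.150, 0.567 and 0.414 CPM in day 7 grafts, and 35.6, 16.3, 13.9, 21.2 and 17.8 CPM in controls. Acaa1b was close to its detection limit in day 7 grafts, so its day 7 change of -5.48 ± 0.65 depends on the offset added to low counts, and was -3.81 on log2(CPM + 1), -3.50 on log2(TPM + 1) and -4.80 on log2(TPM + 0.1). At day 3 it changed by -3.08 ± 0.45 (adjusted p = 4.1e-05), or by -2.32 on log2(TPM + 1), and every graft was below every control. Acaa1b supplied 4.75% ± 3.31 of the pair's TPM in day 3 grafts, 1.2% ± 0.878 in day 7 grafts and 20.1% ± 6.78 in controls.

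Within other pairs that match a mitochondrial with a peroxisomal enzyme, Hadha to Ehhadh was higher by 2.15 and 2.18 at days 3 and 7 (adjusted p = 0.0141 each) and Acaa2 to Acaa1a lower by 0.69 and 0.54 (adjusted p = 0.0254 and 0.0346, exact permutation tests). The day 7 difference of Acaa2 to Acaa1a lay between -0.68 and -0.38 in all alternatives, but the call was lost without control 1 or 2, or without day 7 graft 1, 2, 3 or 4. The Hadha to Hsd17b4 ratio was lower by 0.30 at day 3 (adjusted p = 0.0448). That call was lost without control 1, 2 or 3 or day 3 graft 1, 2 or 4. It was also lost with ratios of deposited TPM, at -0.32 (adjusted p = 0.056). At day 7 the difference of -0.21 ± 0.13 (SE) did not pass (adjusted p = 0.171), but it passed without control 4, at -0.29 (adjusted p = 0.0435). The peroxisomal enzymes fell more than the mitochondrial ones in some pairs and less in others.

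**Figure D5:**
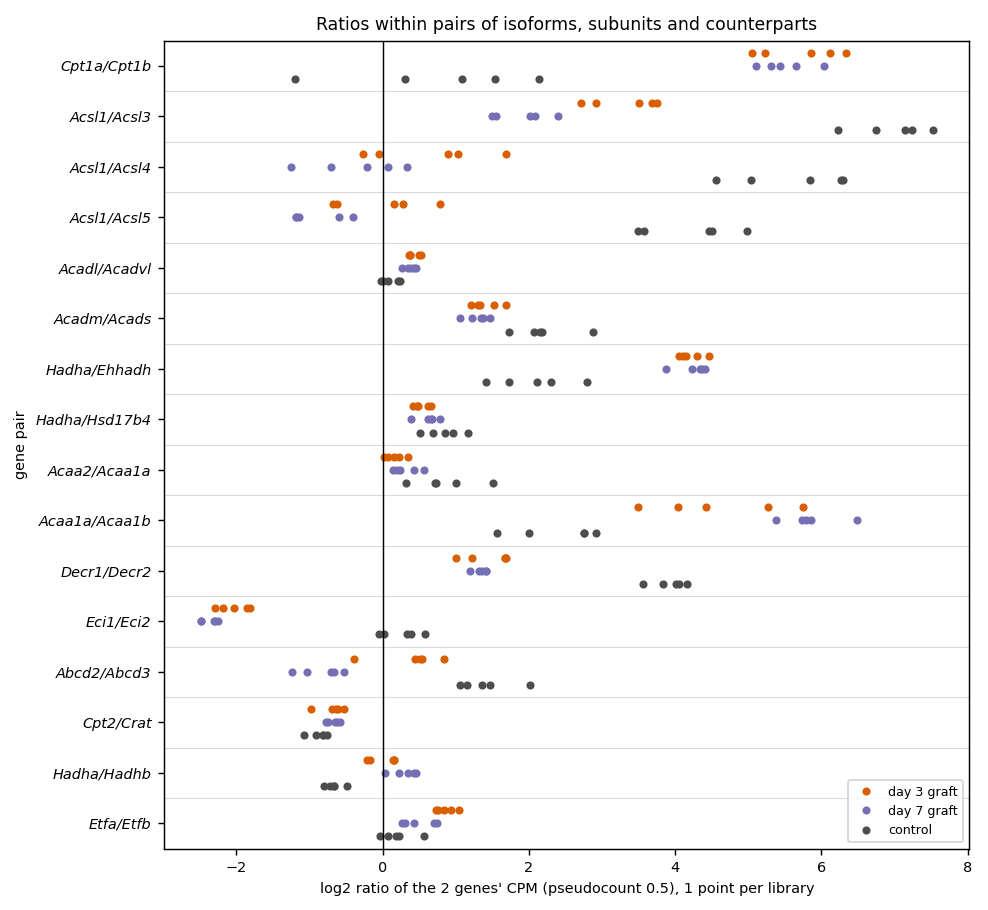
Log2 ratio of the CPM of the 2 genes of each of 16 pairs, with 1 point per library. Grafts and controls are apart for Cpt1a/Cpt1b and for Acsl1 with each other synthetase, and day 3 and day 7 grafts are apart for Acsl1/Acsl3 and Abcd2/Abcd3.

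Over all pairs, 15 of 16 log2 ratios differed between day 3 grafts and controls, 14 of 16 between day 7 grafts and controls, and 5 of 16 between day 7 and day 3 grafts, so 34 of 48 comparisons passed. No share over other gene pairs was computed to set beside these counts. Of all single genes tested, 60.4%, 60.7% and 4.88% were called in the same comparisons. The pairs were chosen with earlier results of these data known. Cpt2 to Crat did not pass at day 3, where the difference was 0.19 ± 0.09 (SE, adjusted p = 0.107, exact permutation test). It passed without day 3 graft 1, at 0.26 (adjusted p = 0.0141), and with ratios of deposited TPM, at 0.55 (adjusted p = 0.0131). At day 7 it was higher by 0.20 (adjusted p = 0.0254), a call lost without control 3, at 0.15.

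Between day 7 and day 3 grafts few genes changed. Acsl1 and Abcd2 were lower at day 7, by log2 changes of -1.01 ± 0.26 (adjusted p = 0.0376) and -1.21 ± 0.29 (adjusted p = 0.0319), and the other 35 did not pass. Over all genes tested 1.71% were lower, 3.18% higher and 4.88% either. The median log2 change of the 37 genes was -0.23, against 0.02 over all genes, and 30 of 37 values were negative. All day 7 grafts were below all day 3 grafts for Acsl1, Crat, Etfa and Acaa1a, 4 of 37 genes, where 3.32% of all genes were so separated downwards, 4.56% upwards and 7.88% either way. Both calls lay near the threshold, and leaving out any of several single libraries lost 1 or both of them. None of the 37 passed without day 3 graft 2, 3 or 5 or without day 7 graft 1, 2, 3 or 4, and 1 passed without control 1, control 2 or day 3 graft 4. The share of all genes called in either direction was 1.96% to 4.07% in these settings. In these settings the change of Acsl1 lay between -0.84 and -1.09 and that of Abcd2 between -1.09 and -1.26 where the call was lost. Acaa1b changed by -2.40 ± 0.72 (adjusted p = 0.0708), Pex11a by -0.89 ± 0.34 and Etfa by -0.69 ± 0.21 (adjusted p = 0.0764), none of which passed in the main analysis. Acsl1 to Acsl3 fell by 1.41 and Abcd2 to Abcd3 by 1.22 on the log2 scale (adjusted p = 0.0141 each). Eci1 to Eci2 and Etfa to Etfb fell by 0.33 and 0.37, and Acaa1a to Acaa1b rose by 1.26 (adjusted p = 0.0346, 0.0254 and 0.0346, exact permutation tests). Of these last ratios, Eci1 to Eci2 was lost without day 7 graft 3, 4 or 5 (-0.34 to -0.30), Etfa to Etfb without day 3 graft 1, 2, 3 or 4 (-0.39 to -0.32), and Acaa1a to Acaa1b without day 3 graft 2 or any day 7 graft (0.98 to 1.37). With ratios of deposited TPM, Etfa to Etfb (-0.33, adjusted p = 0.0977) and Acaa1a to Acaa1b (1.25, adjusted p = 0.056) were lost too. Acaa1a to Acaa1b was also lost with a pseudocount of 1 CPM (0.91, adjusted p = 0.0653).

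Adipocyte markers were lower at day 7 than at day 3. Of the 6, 5 were lower in day 7 than in day 3 grafts, with a median log2 change of -1.98, and their medians against controls were -2.72 at day 3 and -4.62 at day 7. Over all genes tested, 1.71% were lower and 4.88% were called in either direction between day 7 and day 3 grafts. Of the 20 mitochondrial genes, limma called 0 in either direction, near that share, with a median of -0.25. Only Etfa had an unadjusted p under 0.05. It passed downwards in 10 of 28 alternatives, with log2 changes of -0.87 to -0.57, among them the TPM scale, quality weights, the fit of the 2 graft groups alone and the analyses without control 3, control 4 or day 7 graft 5. At day 3, 6 of the 37 genes (Acsl1, Cpt1b, Acadm, Eci1, Ehhadh and Acaa1b) were below the adipocyte marker median, and at day 7 only Acsl1 and Acaa1b were. The difference between the marker list and the 37 genes was not tested.

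Genes around the pathway moved in the same comparisons. The 6 genes of carnitine supply and malonyl-CoA control were all lower at both times. Over all genes tested, 30.3% were lower at day 3 and 28.4% at day 7, and the count of regulators below is to be read beside the same shares. Acaca and Acacb, the acetyl-CoA carboxylases whose product malonyl-CoA inhibits carnitine palmitoyltransferase 1, averaged 82.3 ± 12.8 and 9.24 ± 5.01 CPM in day 3 grafts, 56.1 ± 2.66 and 6.16 ± 1.34 in day 7 grafts, and 2395 ± 1064 and 425 ± 157 in controls (SD, n = 5 each). Their log2 changes were -4.74 ± 0.25 and -5.60 ± 0.33 at day 3 and -5.28 ± 0.25 and -6.05 ± 0.34 at day 7. Of 7 transcriptional regulators, 6 were lower at both times and Ppard did not pass. Ppara, the nuclear receptor that drives fatty acid oxidation genes, averaged 0.541 ± 0.419 CPM in day 3 grafts, 0.223 ± 0.030 in day 7 grafts and 10.96 ± 5.23 in controls. Ppargc1a, a coactivator of mitochondrial genes, averaged 0.751 ± 0.401, 0.434 ± 0.241 and 17.03 ± 6.02 in the same groups. In grafts both genes lay near or below the filter level of 0.389 CPM in 5 libraries, which the controls alone could meet. Their lower calls are limited to that extent.

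Other lists were more mixed, and are to be read beside the 30.3% of all genes lower and 60.4% called in either direction at day 3, and the 28.4% and 60.7% at day 7. Of 14 peroxins, which build peroxisomes, 13 were lower at day 3 and 12 at day 7, with medians of -0.93 and -1.14, and Pex16, which inserts peroxisomal membrane proteins, changed most, by -2.74 ± 0.25 and -3.19 ± 0.26. Of 13 other peroxisomal enzymes, 8 were lower and 1 higher at day 3, and 9 were lower and 2 higher at day 7. Slc27a2, a very-long-chain acyl-CoA synthetase, averaged 0.040 ± 0.040 CPM in day 3 grafts, 0.023 ± 0.034 in day 7 grafts and 6.01 ± 2.08 in controls, with some graft libraries at 0. Agps, an enzyme of ether lipid synthesis, rose by 0.76 ± 0.13 and 0.75 ± 0.13. Of 5 genes of ketone body metabolism, 4 were lower at day 3 and 3 at day 7. Of 5 acyl-CoA thioesterases, 2 were higher and 2 lower at each time, and Acot7, a cytosolic thioesterase, rose by 1.29 ± 0.19 and 1.40 ± 0.19. Of the 50 genes tested in these 6 lists, limma called 0 between day 7 and day 3 grafts and 6 had an unadjusted p under 0.05, where 4.88% of all genes were called.

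Gene spans of 24 of the 37 overlap another annotated gene, 12 of them on the same strand. The library kit keeps strand, but no source at hand says whether the counting used it. Partners of the genes with small changes include Myd88, which shares 1736 bases of its span with Acaa1a on the other strand and averaged 83.4 CPM over all libraries, Zdhhc6 beside Acsl5 with 51.3 CPM, and Utp14b, which lies on the strand of Acsl3 with 5.13 CPM. The small changes of Acaa1a, Acsl5 and Acsl3 are uncertain to that extent.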

How the data were processed

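Per the labels' protocols, adipose tissue RNA was sequenced as stranded paired-end mRNA libraries. Listed in the submitters' processing notes are the tools RSEM 1.3.1, STAR 2.7.1a and cutadapt 2.8, and mm10 as genome build. The authors deposited, per the file headers, a read count and a TPM value for each gene and library, and 15 further columns of RPKM that were not used. The deposited read counts are whole numbers that come from an estimating tool, so reads that fit several genes may have been shared out.

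Genes with at least 10 counts at the median library (0.389 CPM) in 5 libraries were tested. Counts were scaled by trimmed mean of M-values and fitted with limma 3.58.1 (voom) in R 4.3.3, as 3 group means over 15 libraries. Log2 changes are given ± SE, and p-values were Benjamini-Hochberg adjusted over 16051 genes. The counts are written with digit separators, which were removed. No quasi-likelihood count test was run. Ratios of 2 genes used log2((CPM + 0.5)/(CPM + 0.5)) and exact permutation tests, adjusted over 48. Levels of different genes were ordered only by deposited TPM, and the CPM ratios of 2 genes were compared only between groups. The procedure was tested on simulated data.

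The members, gene lists and pairs were chosen with earlier results of these data known. Library values are given for a fixed panel of genes and for any gene that rose, ranges for the rest, and from other lists up to 2 called genes in each direction. Replicate numbers did not pair the libraries: correlations of same-numbered deviations ran from -0.183 to 0.341. Alternatives covered scaling, filters, TPM, weights, a replicate block and libraries left out.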

Additional observations from a re-analysis of the deposited data

Results flagged for a closer look

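In 7 of 111 groups of 5 libraries, each 1 gene in 1 group, the highest or lowest library stood apart from the other 4 by Dixon's criterion at 0.71, and chance alone flags about 1 group in 20. In day 7 grafts, day 7 graft 2 was high for Hadhb at 138 CPM (next 115), for Decr1 at 67.7 CPM (next 53.9) and for Hsd17b4 at 101 CPM (next 90.4). Day 7 graft 4 was low for Acsl5 at 115 CPM (next 134), and day 7 graft 1 was low for Crat at 44.2 CPM (next 53.3). In day 3 grafts, graft 4 was high for Decr2 at 28.2 CPM (next 24.7). In controls, control 4 was high for Ehhadh at 223 CPM (next 90.8), the library with the highest adipocyte marker sum. No cause of these values was tested.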

How the results depend on the processing

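Against controls, 32 of 35 calls at day 3 and 32 of 34 at day 7 kept their side of the threshold and their direction in all 28 alternatives; the exceptions were Eci2, Acox3 and Acaa1a at day 3 and Eci2 and Acox3 at day 7. Leaving out single libraries gave 31 to 32 genes lower and 3 to 4 higher at day 3, 32 lower and 2 to 3 higher at day 7, and 31 to 35 of 48 pairs. The count lower between day 7 and day 3 grafts, 2 in the main analysis, was 0 with no filter, 5 with only the 2 groups in the fit and 6 with quality weights. It was 5 without day 3 graft 1 and day 7 graft 5, 4 without controls 2 and 4, and 0 to 3 without 1 library. The share of all genes called in either direction moved too. It was 4.88% in the main analysis, 2.46% with no filter, 9.16% with the 2 groups and 22.9% with quality weights. It was 9.33% without day 3 graft 1 and day 7 graft 5, 8.56% without controls 2 and 4, and 1.96% to 9.48% without 1 library. With the replicate block the count lower was 1 and no pair passed, 0 of 48, since 5 pairs cannot give a p below 0.0625. Besides the pairs and Acsl1 between day 7 and day 3 grafts, the block changed no call. Same-numbered libraries correlated best with each other in 1, 0 and 1 of 5 cases. The TPM scale moved the median of all genes to 0.22 and 0.33 (pseudocount 1) or 0.28 and 0.43 (pseudocount 0.1) at days 3 and 7, with 6301 genes higher and 2967 lower at day 3 and 7396 and 2585 at day 7 (pseudocount 1), against 4832 and 4856, and 5170 and 4566. There the mitochondrial medians were -1.63 and -1.74 (pseudocount 1) or -1.69 and -1.86 (0.1), the day 7 peroxisomal median -0.94 or -0.95, 4 genes were higher at day 7, and Acox3 at day 7 reversed to 0.047 and 0.049 (adjusted p = 0.842 and 0.843); the cause was not tested. Depth limits Acaa1b, Slc27a2, Ppara and Ppargc1a in grafts. Acaa1b had 5 to 28 counts in day 7 grafts, and Slc27a2 had 0 to 2 in each graft group.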
